A study of Mus musculus with 2 samples.

Results

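The 50 genes described here encode proteins of the inner lining of blood and lymph vessels: junction and surface proteins of endothelial cells, their growth factor receptors, the adhesion molecules they show to leukocytes, and the transcription factors that specify them. They were chosen by gene symbol, and all 50 were measured, by 77 probes, among 19532 genes with a symbol on the array. RNA of mouse heart was set against RNA of mouse embryonic fibroblasts (MEF), connective-tissue cells grown from embryos, on 2 two-colour Agilent arrays. Per the labels the heart material was untreated and taken without culture, its RNA carried Cy3 and was numbered heart-1 and heart-2, and the Cy5 channel of both arrays held RNA of MEF kept in DMEM medium with 10% fetal bovine serum. The sources used here give neither strain, age or sex nor the number of animals or of MEF cultures. The dyes were not exchanged, so a dye bias of a probe would repeat on both arrays. Such a bias cannot be told apart from a difference between heart and MEF, and small ratios are weak even where they pass a test. A p-value here thus reflects only how far the 2 arrays differed, which may be technical variation, and says nothing of how MEF cultures vary.

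Endothelial cells line every vessel and make up a large share of the cells of the adult heart, where a capillary runs beside nearly every muscle fibre. Angiopoietins acting on the Tie receptors and adrenomedullin acting on its receptor complex keep vessels stable, and transcription factors of the ETS and GATA families specify endothelial cells. Lymphatic endothelium is a related lining that drains tissue fluid. Cultured embryonic fibroblasts are not endothelial, but several of the genes on the list are known from stromal cells, macrophages, mesothelium or platelets as well.

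Each value is a deposited log2 ratio, averaged over the probes of a gene, with positive values taken as heart over MEF. That direction is likely rather than stated: it rests on the study's stated aim of comparing heart with MEF and on 20 cardiomyocyte sarcomere genes, with medians of 6.29 (heart-1) and 6.30 (heart-2). The signs of those genes are therefore no result. Of 12 fibroblast markers, which did not set the direction, 11 were lower in heart and 1 did not pass the test, with a median of -3.65. At least 2-fold lower on both arrays were 10 of them, against 18.5% of all genes. Ratios of the 19532 genes had a median of -0.04 and an SD of 1.68, and their differences between arrays had an SD of 0.32. In whole tissue, a larger number of endothelial cells and more RNA per endothelial cell cannot be told apart.

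Most vessel genes were higher in heart. By limma's test of the mean ratio against 0, with Benjamini-Hochberg adjustment over all genes, 39 of the 50 were higher in heart, 6 were lower and 5 did not pass an adjusted p of 0.05. The same test called 73.1% of all genes (33.8% upward, 39.3% downward), so a call alone says little and the sizes are given throughout. At least 2-fold higher on both arrays were 33 of the 50 genes, against 18.1% of all genes, and at least 2-fold lower were 4, against 18.5%. A ratio of at least 4-fold on both arrays was met by 26 genes upward, against 8.99% of all genes, and by 2 genes downward, against 7.2%. The median ratio of the 50 was 2.28 (2.22 on heart-1 and 2.29 on heart-2), the quartiles lay at 0.49 and 4.22, and the range ran from -3.04 for Pdpn to 7.56 for Myct1. By treat, limma's test against a 2-fold change, 33 of the 50 genes were higher, against 15.1% of all genes, and 3 were lower, against 14.6%. The 50 genes were listed with earlier results of these data known, so these shares describe the list and are no test of it.

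**Figure D1:**
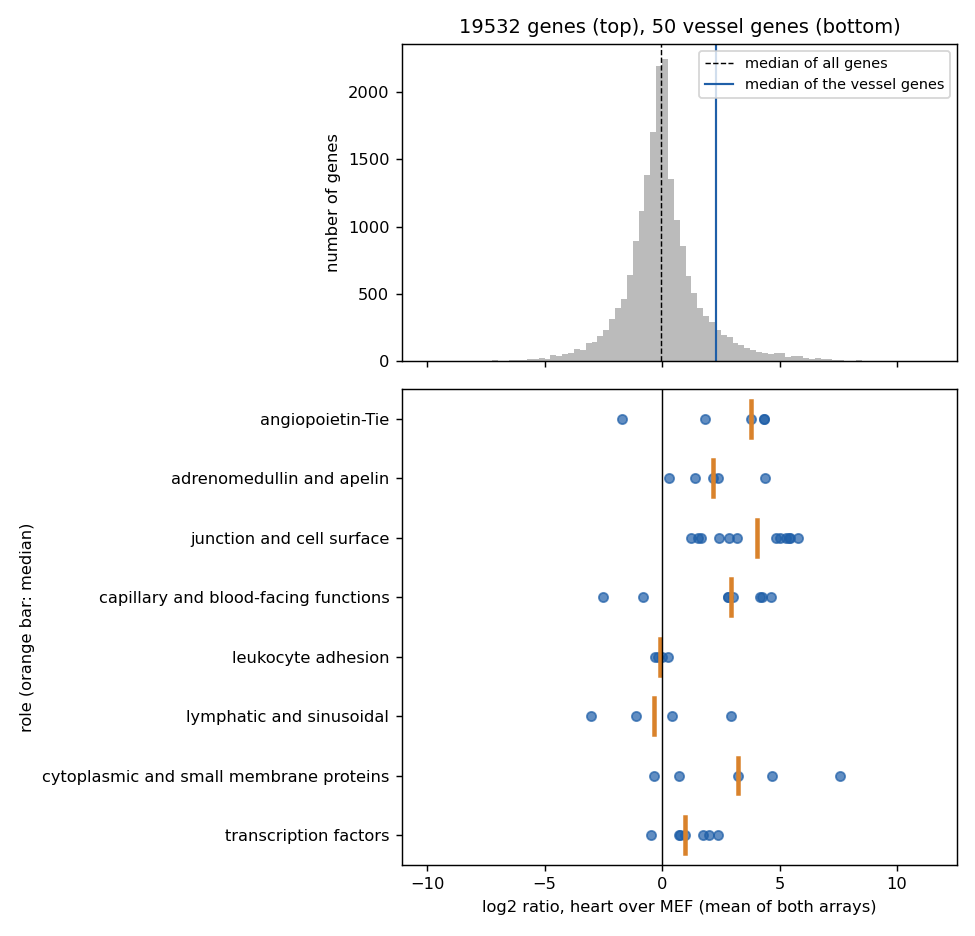
The upper panel counts all 19532 genes by mean log2 ratio of heart over MEF, with the median of all genes (dashed) and of the 50 vessel genes (blue). The lower panel shows each vessel gene as a point in its role, with the role's median as an orange bar. Genes of the junction and surface group lie wholly to the right of 0 (1.25 to 5.80), while leukocyte adhesion genes sit near 0 (-0.29 to 0.24). Surface proteins placed in other groups lie on both sides of 0.

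The arrays gave close values for most of these genes. The median SD of the 2 arrays was 0.06, and the arrays differed by less than 0.25 for 38 genes. They differed by more than 0.5 for 3 (Myct1, Ptprb and Mmrn1), against 8.20% of all genes. Only Sele had opposite signs on the arrays. The heart-2 value was the larger one for 37 of the 50. The share of all genes with a larger heart-2 value was not counted. The median over all probes was -0.14 on heart-2 and 0.07 on heart-1.

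Of the 5 listed genes of the angiopoietin-Tie system 4 were higher in heart and 1, the ligand Angpt2, was lower. Tie1, the orphan partner of the angiopoietin receptor, had ratios of 4.21 on heart-1 and 4.48 on heart-2, a mean of 4.34 ± 0.19 (SD, n = 2; 20.3-fold; limma adjusted p = 0.00157). Tek, the angiopoietin receptor Tie2, was at 3.65 and 3.94, a mean of 3.80 ± 0.20 (13.9-fold; limma adjusted p = 0.00182). Its RefSeq probe alone stood at 6.46 and its probe of another transcript record at 1.13. The ratio of Tie1 stood above 97.8% and that of Tek above 97.0% of all genes. Ptprb, the vascular endothelial phosphatase that dampens Tie2 signalling, was at 4.03 and 4.67, 4.35 ± 0.45 on average (limma adjusted p = 0.00377). Its 2 probes differed, at 5.50 and 3.21.

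The listed ligands of the system, Angpt1 and Angpt2, went opposite ways. Angpt1, the activating ligand made by cells around the vessel, was at 1.79 on heart-1 and 1.88 on heart-2 (1.84 ± 0.06, 3.58-fold higher in heart; limma adjusted p = 0.00172). Angpt2, the ligand that endothelial cells store and release, and which can oppose Angpt1, was at -1.72 and -1.65 (-1.68 ± 0.05, 3.21-fold lower in heart; limma adjusted p = 0.00169). Neither ligand's values came near 0 on either array. Angpt2 was measured by 1 probe, Angpt1 by 2 at 2.33 and 1.35.

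Receptor genes of adrenomedullin and apelin were higher in heart, and the apelin ligand did not pass. Calcrl encodes the receptor that becomes responsive to adrenomedullin when joined to Ramp2 or Ramp3. Ramp2 was at 4.39 and 4.42 on the heart-1 and heart-2 arrays (4.40 ± 0.02, 21.1-fold), Calcrl at 2.28 and 2.48 (2.38 ± 0.14, 5.20-fold) and Ramp3 at 1.38 and 1.40 (1.39 ± 0.02, 2.62-fold), with limma adjusted p between 0.00136 and 0.00212. The ratio of Ramp2 thus exceeded that of its relative Ramp3 on both arrays, each by 1 probe. Aplnr, the apelin receptor, was at 2.16 and 2.19 (2.17 ± 0.02; limma adjusted p = 0.00137), from probes at 3.31 and 1.03. Apln, its ligand, was at 0.12 and 0.51 (0.32 ± 0.28; limma adjusted p = 0.161), and its 3 probes stood at -0.69, 0.29 and 1.34. As a median over probes instead of a mean, Apln passed at 0.29 (limma adjusted p = 0.0286).

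**Figure D2:**
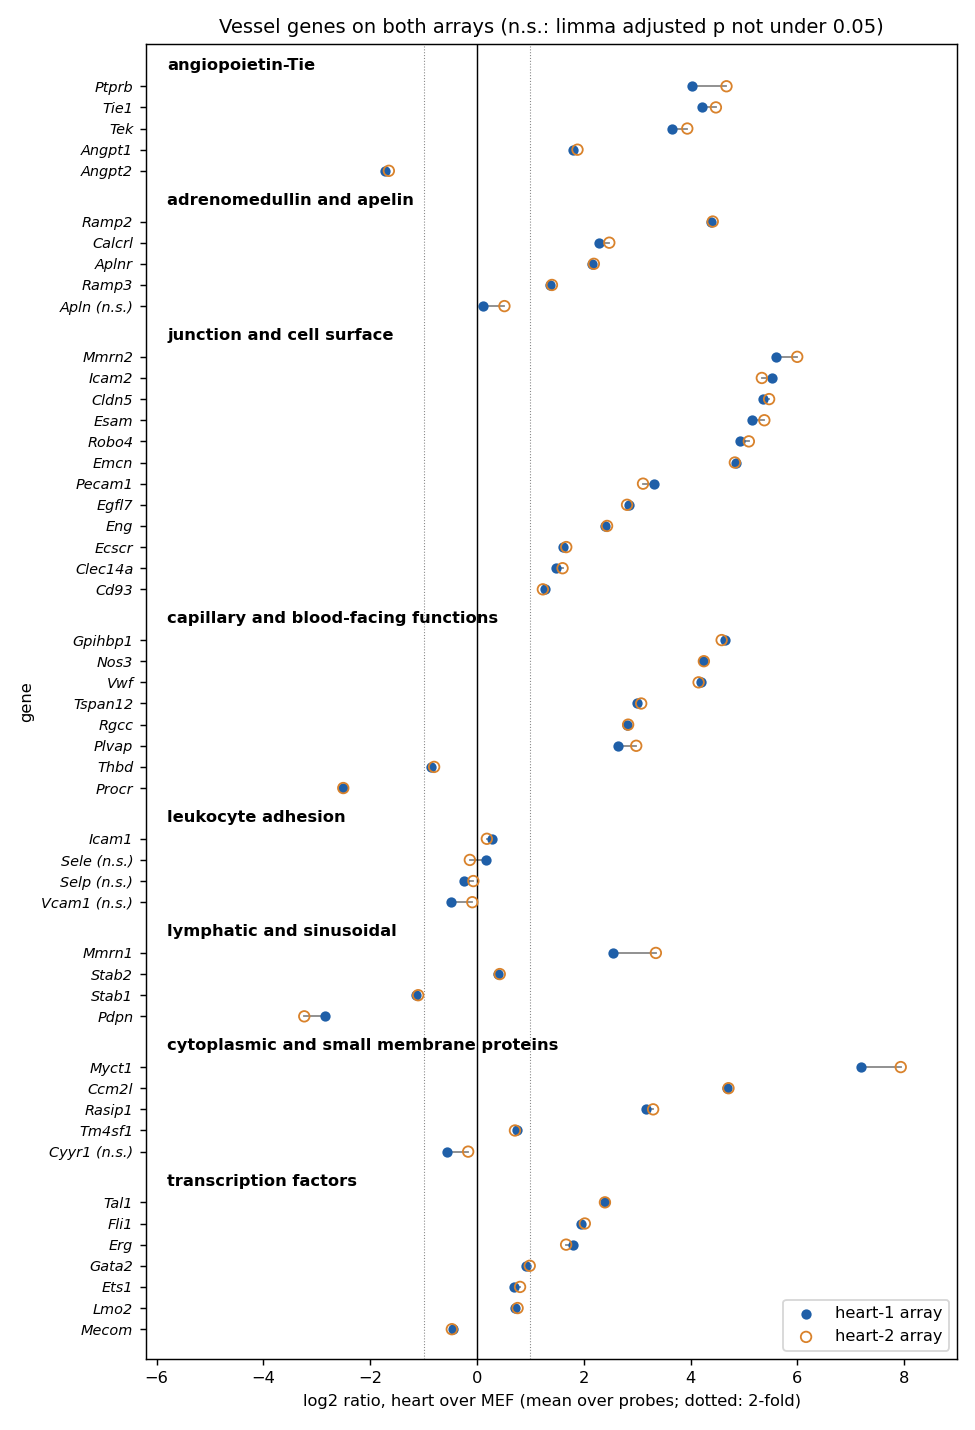
Log2 ratio of heart over MEF for the 50 vessel genes, grouped by role and ordered by mean, with the heart-1 array as a filled blue point and the heart-2 array as an open orange one; dotted lines mark a 2-fold ratio. The arrays overlap for most genes, and Angpt2, Thbd, Procr, Stab1, Pdpn and Mecom are the called genes left of 0.

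All 12 genes of the junction and surface group were higher in heart, each at least 2-fold on both arrays, with a median of 4.03. Surface proteins placed in other groups went both ways, such as Tie1 at 4.34 and Procr at -2.51 on average. The shared direction therefore belongs to this grouping, not to all surface proteins of the list. The group also holds the matrix protein Mmrn2 and the secreted factor Egfl7. Mmrn2, a matrix protein of the vessel wall that binds Cd93 and Clec14a, was highest at 5.60 and 5.999 (5.80 ± 0.28, 55.7-fold; limma adjusted p = 0.00166). Icam2, an adhesion molecule of resting endothelium, was at 5.52 and 5.34 (5.43 ± 0.13), Cldn5, the claudin of endothelial tight junctions, at 5.36 and 5.47 (5.41 ± 0.08), and Esam, an adhesion protein of the same junctions, at 5.16 and 5.38 (5.27 ± 0.16). Each of these was at least 38.6-fold higher in heart. Robo4, the endothelial roundabout receptor, was at 4.93 and 5.09 (5.01 ± 0.11) and Emcn, the sialomucin endomucin, at 4.85 and 4.83 (4.84 ± 0.01). These 6 genes and no other member of the group had mean ratios over 4.

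The rest of the group lay lower. Pecam1, the adhesion molecule CD31 widely used as an endothelial marker, was at 3.31 and 3.11 over 2 probes with means of 4.33 and 2.09. Egfl7, a factor secreted by endothelium, was at 2.86 and 2.81 (2.83 ± 0.03), and Eng, the TGF-beta co-receptor endoglin, at 2.40 and 2.44 (2.42 ± 0.03). Ecscr, a small surface protein of endothelial cells, was at 1.60 and 1.67 (1.64 ± 0.05). Clec14a and Cd93, the related lectin-like receptors of Mmrn2, were the lowest of the 12, at 1.48 and 1.60 for Clec14a and at 1.27 and 1.23 for Cd93. The 2 Cd93 probes were close (1.29 and 1.22), whereas those of Clec14a stood at 3.03 and 0.06. The limma adjusted p of the 12 genes was at most 0.0023.

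Promoter sequence is shown for the 4 genes of the list with the highest ratios among those found in the RefSeq promoter table (GRCm38.p6), which held 29 of the 50: Myct1, a membrane protein described below, Cldn5, Robo4 and Emcn. Each line gives the 250 bases before the annotated start, 5′ to 3′ on the gene's strand. Capitals mark matches, on either strand, to the ETS cores CAGGAAG and CCGGAAG, the GATA motif AGATAAG or the AP-1 motif TGACTCA.
Myct1 (chr10:5593478-5593727, plus strand): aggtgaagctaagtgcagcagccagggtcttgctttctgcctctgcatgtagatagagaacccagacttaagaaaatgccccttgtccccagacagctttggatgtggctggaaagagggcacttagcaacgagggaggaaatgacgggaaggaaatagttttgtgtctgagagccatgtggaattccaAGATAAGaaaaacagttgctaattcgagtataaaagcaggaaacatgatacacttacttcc
Cldn5 (chr16:18776597-18776846, plus strand): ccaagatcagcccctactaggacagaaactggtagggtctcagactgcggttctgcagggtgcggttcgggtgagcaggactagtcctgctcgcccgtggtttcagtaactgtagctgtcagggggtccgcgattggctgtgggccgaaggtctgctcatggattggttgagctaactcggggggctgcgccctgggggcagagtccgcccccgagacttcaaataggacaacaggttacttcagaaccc
Robo4 (chr9:37401722-37401971, plus strand): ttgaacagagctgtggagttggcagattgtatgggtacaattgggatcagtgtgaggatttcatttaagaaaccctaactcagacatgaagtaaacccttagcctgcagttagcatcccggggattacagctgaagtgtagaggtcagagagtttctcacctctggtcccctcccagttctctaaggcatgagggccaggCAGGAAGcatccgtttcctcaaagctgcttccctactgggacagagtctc
Emcn (chr3:137340828-137341077, plus strand): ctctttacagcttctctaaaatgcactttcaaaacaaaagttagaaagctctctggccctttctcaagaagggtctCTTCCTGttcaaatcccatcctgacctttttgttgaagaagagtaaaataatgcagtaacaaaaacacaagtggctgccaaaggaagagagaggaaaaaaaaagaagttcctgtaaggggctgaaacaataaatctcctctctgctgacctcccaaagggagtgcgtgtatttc
The Myct1 window held 1 GATA match, which began 61 bases before the start. Robo4 held CAGGAAG from 50 bases before the start, and Emcn held the same core on the opposite strand from 174 bases before it. Cldn5 held no match to these letters. Over all listed genes in the table, 11 of 36 windows (30.6%) held CAGGAAG, against 4359 of 32851 windows of the same length (250 bases before to 50 after the start) (13.3%). For CCGGAAG the numbers were 1 of 36 (2.78%) against 8.86%, for AGATAAG 3 of 36 (8.33%, in Erg, Myct1 and Tek) against 3.04%, and for TGACTCA 2 of 36 (5.56%) against 5.20%. CAGGAAG lay in windows of Calcrl, Egfl7, Emcn, Erg, Rasip1 and Robo4, called higher in heart, and of Apln, Cyyr1, Sele and Stab1, not called higher. Of the 22 windows of genes at least 2-fold higher on both arrays, 7 held it. Some genes have several windows, which can overlap, and a match is a description of letters, not a bound site.

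Genes of the capillary surface and of blood flow were mostly higher in heart, and the anticoagulant receptors of the protein C pathway were lower. Gpihbp1, which carries lipoprotein lipase to the capillary surface, was at 4.65 and 4.58 (4.62 ± 0.05, 24.6-fold), and Nos3, the endothelial nitric oxide synthase, at 4.22 and 4.25 (4.24 ± 0.02, 18.9-fold). Vwf, the von Willebrand factor that tethers platelets, was at 4.19 and 4.15 (4.17 ± 0.03). Limma's adjusted p was 0.00136 for each of these genes. The Vwf mean joins probes that disagreed. Those designed to the RefSeq mRNA stood at 6.99 and 5.52, and a probe of another transcript record at 0.00. The latter probe lay on both arrays in the spike of near-constant values described below, at 0.17 and -0.16. With that probe left out, Vwf had a ratio of 6.25.

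Tspan12, a tetraspanin that assists norrin signalling in endothelium, was at 2.99 and 3.08 (3.03 ± 0.06). Rgcc, a cell cycle regulator, was at 2.81 and 2.83 (2.82 ± 0.02), and Plvap, which forms the diaphragms of fenestrae and caveolae, at 2.63 and 2.98 (2.81 ± 0.25; limma adjusted p = 0.00312). These genes lay within a narrow band from 7.004-fold to 8.19-fold. Procr, the endothelial protein C receptor, was at -2.51 and -2.50 (-2.51 ± 0.01, 5.69-fold lower in heart; limma adjusted p = 0.00136). Thbd, thrombomodulin, which turns thrombin towards protein C, was at -0.85 and -0.80 (-0.83 ± 0.04; limma adjusted p = 0.00343). Thbd stayed under 2-fold and did not pass treat. Each of these 5 genes had 1 probe.

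The leukocyte adhesion genes were the group nearest to 0, with none at least 2-fold apart on both arrays. Sele, E-selectin, was at 0.16 and -0.13 (limma adjusted p = 0.932). Its only probe fell in a narrow spike of near-constant values that both arrays held, from 0.12 to 0.20 on heart-1 and from -0.22 to -0.10 on heart-2, which 3470 of 41174 probes shared on both arrays. Selp, P-selectin, was at -0.25 and -0.07 (limma adjusted p = 0.163). Icam1, the ligand of leukocyte integrins, was at 0.29 and 0.19 (0.24 ± 0.07; limma adjusted p = 0.0436), a call lost when each array was centred on its median (limma adjusted p = 0.201).

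Vcam1, the adhesion molecule for integrin alpha-4, did not pass as a mean of its 3 probes, at -0.49 and -0.09 (-0.29 ± 0.28; limma adjusted p = 0.189). The probes of its RefSeq mRNA were lower in heart, at -1.13 and -1.06 for the first and -1.41 and -1.43 for the second, while the probe of another transcript record was higher, at 1.07 and 2.23. Over the RefSeq probes alone Vcam1 had a ratio of -1.26 (limma adjusted p = 0.00143), and as a median over all 3 it had -1.09 (limma adjusted p = 0.00287).

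Lymphatic and sinusoidal genes split. Pdpn, podoplanin, a mucin of lymphatic endothelium that stromal and mesothelial cells also carry, had the lowest ratio of all 50 genes, at -2.84 and -3.23 (-3.04 ± 0.28, 8.22-fold lower in heart; limma adjusted p = 0.0032). Its 2 probes stood at -4.41 and -1.67. Mmrn1, multimerin 1, found in platelets and lymphatic endothelium, was at 2.54 and 3.35 (2.95 ± 0.57; limma adjusted p = 0.01). The RefSeq probe of Mmrn1 stood at 5.58 and its other probe at 0.32.

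Stab1, a scavenger receptor of sinusoidal endothelium and tissue macrophages, was at -1.15 and -1.10 (-1.12 ± 0.03; limma adjusted p = 0.00226), with probes at -1.75 and -0.50. It did not pass treat (limma adjusted p = 0.106). Stab2, its relative, was at 0.40 and 0.43 (0.41 ± 0.02; limma adjusted p = 0.00922). The stabilins therefore lay on opposite sides of 0 on both arrays, with Stab2 under 2-fold. Of 11 measured macrophage and leukocyte markers 7 were lower in heart, 1 was higher and 3 did not pass (median -0.70). At least 2-fold lower on both arrays were 4, against 18.5% of all genes, and 1 was at least 2-fold higher, against 18.1%. Cd163, a scavenger receptor of resident macrophages, was the higher one at 6.31 and 7.03, while Cd14 was at -3.20 and -3.23 and lysozyme, Lyz2, at -2.33 and -2.32. The part of macrophages in the Stab1 ratio was not tested.

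Of 13 other lymphatic genes 7 were higher in heart, 3 were lower and 3 did not pass, with a median of 0.96. Among all genes 33.8% were called higher and 39.3% lower. At least 2-fold on both arrays were 5 of the 13 upward and 3 downward, against 18.1% and 18.5% of all genes. Lyve1, the hyaluronan receptor of lymphatic vessels and of some macrophages, was at 5.93 and 5.75 (5.84 ± 0.12), the chemokine Ccl21a at 5.15 and 5.20 (5.17 ± 0.03) and Prox1, the master regulator of lymphatic identity, at 3.07 and 3.38 (3.22 ± 0.22, with 3 probes from 1.14 to 5.59). Prox1 is also active in heart muscle cells. On the other side were Foxc2, a forkhead factor of lymphatic valves (-2.89 on both arrays), Svep1, a matrix protein of the lymphatic pathway (-1.97 and -2.31), and Nrp2, the co-receptor for VEGF-C (-1.72 and -1.74). Of 8 mesothelial markers 5 were higher in heart, 2 were lower and 1 did not pass. By size alone, 5 were at least 2-fold higher on both arrays, against 18.1% of all genes, and no marker was at least 2-fold lower. Upk3b, a uroplakin of mesothelium, was at 1.97 and 3.20 and mesothelin, Msln, at 2.12 and 2.04, while the keratins Krt19 (-0.91 and -0.87) and Krt18 (-0.72 and -0.65) were the lower ones. The part of mesothelial cells in the Pdpn ratio was not tested.

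Among the cytoplasmic and small membrane proteins, Myct1 had the highest ratio of the 50 genes. Myct1, a membrane protein of endothelial and blood stem cells, was at 7.19 and 7.94 (7.56 ± 0.53, 189-fold; limma adjusted p = 0.00225), above 99.9% of all genes, by 1 probe. Ccm2l, a relative of the cerebral cavernous malformation protein Ccm2, was at 4.68 and 4.71 (4.69 ± 0.02, 25.9-fold), and Rasip1, a Ras-interacting protein needed for vessel lumens, at 3.17 and 3.30 (3.24 ± 0.09, 9.42-fold). These 3 genes were at least 4-fold higher on both arrays. Tm4sf1, a tetraspanin-like surface protein, was at 0.74 and 0.71 (0.73 ± 0.02; limma adjusted p = 0.00374), and Cyyr1 was at -0.56 and -0.16 (limma adjusted p = 0.126). Ccm2 itself, a broadly expressed adaptor, was lower in heart at -1.34 and -1.37 (limma adjusted p = 0.0018).

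The transcription factors had a median ratio of 0.96, with 6 of the 7 higher in heart and 1 lower. Tal1, a basic helix-loop-helix factor of blood and endothelium, was highest at 2.40 on both arrays (5.26-fold; limma adjusted p = 0.00136). The ETS factors Fli1 and Erg, close relatives that hold endothelial identity, were at 1.94 and 2.02 for Fli1 (1.98 ± 0.06, 3.95-fold) and at 1.80 and 1.67 for Erg (1.73 ± 0.09, 3.32-fold). For these 3 genes every probe was higher in heart, though Tal1 had only 1 probe, of another transcript record. Tal1 thus has no value with RefSeq probes only. Ets1, the founding ETS factor, active in many mesenchymal cells, was at 0.70 and 0.81 (0.75 ± 0.08), over 4 probes from 0.11 to 1.64.

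Lmo2, a bridging protein of Tal1 complexes, was at 0.71 and 0.76 (0.73 ± 0.04) and Gata2, a zinc-finger factor of endothelium and blood progenitors, at 0.92 and 0.99 (0.96 ± 0.04). Both passed against 0 and neither reached 2-fold. Mecom, a zinc-finger factor, was lower in heart at -0.44 and -0.47 (-0.46 ± 0.02; limma adjusted p = 0.00767). Of its 3 probes 1 lay in the near-constant spike, and without it Mecom had a ratio of -0.69. Of 9 measured megakaryocyte and platelet markers 8 were higher in heart, all at least 2-fold on both arrays (18.1% of all genes), and 1 was lower (median 4.63). This lineage shares Tal1, Lmo2, Gata2, Fli1, Vwf, Selp and Mmrn1, among other genes, with endothelium. Clec1b was at 8.11 and 8.49, Gp9 at 6.96 and 7.28 and the platelet basic protein Ppbp at 6.72 and 6.67, and Gp1bb was the lower one at -0.22 and -0.20. The part of platelets or megakaryocytes in the ratios of the shared genes, named here or not, was not tested.

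Probes of the same gene often disagreed in size. Of the 50 genes 21 had more than 1 probe, and the probe means of 13 of them (61.9%) spanned more than 1 on the log2 scale, against 48.2% of all 8511 genes with several probes. In 4 of the 21 (19.0%) the probes differed in sign, against 39.1% of all such genes: Apln, Selp, Vcam1 and Mecom. The highest probe was barely above 0 in Selp (0.001) and in Mecom (0.009, in the near-constant spike). The widest span was 6.98, for Vwf, and rests on its probe in the near-constant spike. Among the 8 genes with probes of both kinds, the probe of another transcript record lay below every RefSeq probe in 4 (Vwf, Tek, Mmrn1 and Pecam1) and above them in 3 (Vcam1, Icam1 and Erg). The mean over probes therefore lies below the RefSeq probes for Tek, Vwf, Mmrn1 and Pecam1, and which probe tracks the transcript cannot be settled from ratios.

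**Figure D3:**
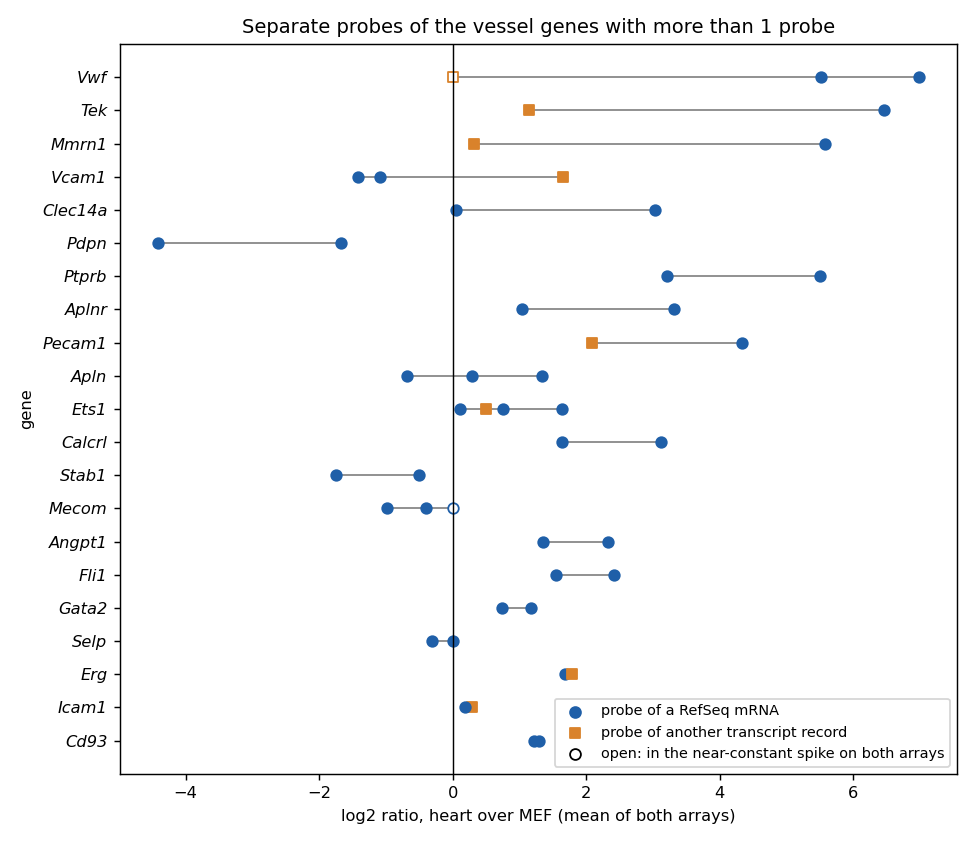
Mean log2 ratio of each probe for the 21 vessel genes with more than 1 probe, ordered by their span; circles are probes of a RefSeq mRNA, squares those of another transcript record, and open symbols lie in the near-constant spike. Spans reach 6.98 for Vwf, whose lowest probe lies in the spike, and the Vcam1 probes lie on both sides of 0.

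Other endothelial genes, which are not among the 50, were also mostly higher in heart. Of 31 genes 22 were higher (33.8% of all genes), 6 were lower (39.3%) and 3 did not pass, with a median of 2.05. At least 2-fold on both arrays were 18 of the 31 upward and 2 downward, against 18.1% and 18.5% of all genes. Cdh5, the cadherin of endothelial junctions, was at 7.54 and 7.52. Sox7, an SRY-box factor, was at 6.37 and 6.52 and its relative Sox18 at 6.17 and 6.29. The exchange factor Fgd5 was at 6.38 and 6.49. Fabp4, a fatty-acid-binding protein of capillaries and fat cells, was at 5.85 and 6.04. Each of these means exceeded that of Mmrn2, which was next to Myct1 in the order of the 50 listed genes. Beside Ccm2, the ETS factors Elk3 (-1.61 and -1.57) and Etv2 (-1.27 and -0.98) were lower in heart.

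VEGF and Notch genes were higher in heart in 16 of 20 cases, with 3 lower, 1 not passing and a median of 1.57. Of all genes 33.8% were called higher and 39.3% lower. At least 2-fold on both arrays were 12 of the 20 upward and 2 downward, against 18.1% and 18.5% of all genes. Jag2, a Notch ligand, was at 4.20 and 4.79, Notch4, the Notch receptor of endothelium, at 4.01 and 4.12, and the Notch targets Heyl and Hey1 at 3.33 and 2.99 on average. Kdr, the main VEGF receptor, was at 2.74 and 2.63, but its 2 probes stood at 5.57 and -0.21. Vegfd (-1.91 and -1.80), Nrp2 and Jag1 (-0.64 and -0.82) were lower in heart. The remaining genes of the angiopoietin, adrenomedullin and apelin systems went both ways: of 7 measured, 2 were higher, 3 were lower and 2 did not pass (median -0.01). By size, 1 was at least 2-fold higher on both arrays and 3 were lower, against 18.1% and 18.5% of all genes. Angpt4, a further angiopoietin, was at -3.94 and -4.05 and Adm2, intermedin, at -4.07 and -2.67, while the chemokine and adrenomedullin scavenger Ackr3 was at 1.42 and 1.47 and Ramp1 at 1.07 and 0.96.

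Markers of cells that surround the endothelium were mixed. Of 12 pericyte and smooth muscle markers 5 were higher in heart, 6 were lower and 1 did not pass (median -0.16). At least 2-fold on both arrays were 5 upward and 5 downward, against 18.1% and 18.5% of all genes. The channel genes Abcc9 (6.89 and 7.25) and Kcnj8 (5.68 and 6.23) and Rgs5 (4.61 and 4.65), all known from pericytes and in part from heart muscle, were higher. The contractile genes Tagln (-4.75 and -4.77) and Cnn1 (-4.42 and -4.45) were lower. Of the same list, Pdgfrb (-1.96 on both arrays) and Cspg4 (-1.76 and -1.83) were also lower. Des (3.93 and 3.96) and Myh11 (1.63 and 1.60, by 1 probe) were also higher. Acta2 was lower at -1.51 and -1.40, with 5 probes from -5.01 to 3.10. Genes of this list thus lay on both sides of 0, and the part of heart muscle in their ratios was not tested. Of 6 endocardial markers, 1 of them the listed gene Plvap, 4 were higher, 1 was lower and 1 did not pass. At least 2-fold higher on both arrays were 3, against 18.1% of all genes, and no marker was at least 2-fold lower. Cytl1 was at 6.69 and 6.71, and Npr3 was lower at -0.29 and -0.52 (limma adjusted p = 0.043). Npr3 stayed under 2-fold, and its 4 probes differed in sign, from -1.04 to 0.31.

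**Figure D4:**
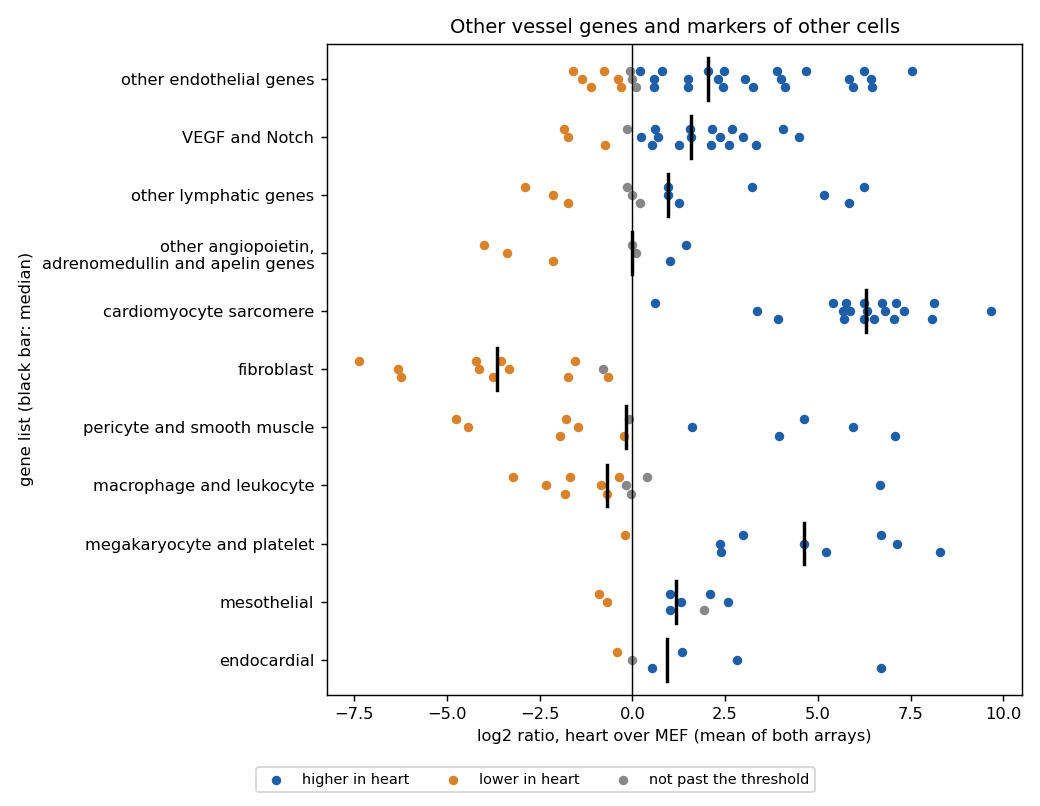
Mean log2 ratio of heart over MEF for genes of the other vessel lists and for markers of other cells, 1 point per gene, blue where higher in heart, orange where lower and grey where the test was not passed, with each list's median as a black bar. Medians run from -3.65 for fibroblast markers to 6.28 for sarcomere genes, which set the direction, with other endothelial genes at 2.05.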

How the data were processed

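For 41174 probes the authors deposited a log ratio of the channels of each array, taken here to be log2; the base is not stated, but the largest absolute value, 11.62, would exceed a 16-bit scanner's range of 65535 as a natural logarithm. Agilent Feature Extraction read the scans, per the submitters' processing notes; its version, background correction, normalization and filters were not given in the sources used here. Medians per array were 0.07 (heart-1) and -0.14 (heart-2), so centring is unknown. Channel intensities were not used here, so no level or detection could be judged; the number of arrays limits the precision.

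Probes were named from the platform annotation: 32664 had 1 symbol, 45 several and 8465 none here. Probes were averaged per gene and array. The mean of each of 19532 genes was tested against 0 with limma 3.58.1 (R 4.3.3; lmFit, eBayes, two-sided, Benjamini-Hochberg adjusted p under 0.05); with 1 residual degree of freedom from 2 arrays, limma leans on the variance shared across genes (prior SD 0.066, 1.25 prior degrees of freedom). The smallest adjusted p was 0.00136. Figures were drawn in Python 3.11.15.

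The 50 genes and all gene lists were chosen with earlier results of these data known. Every listed gene is named. Genes named from the other lists were taken from the 5 with the largest absolute ratio and up to 3 against the majority of each. Not all of these are printed, and Pdgfrb, Cspg4, Des, Myh11 and Acta2 were named beside them. Promoters came from RefSeq; a planned comparison of related proteins was not made, because no protein sequences were used here. Alternatives were centring, quantile normalization, the median over probes, omission of the spike, a robust prior, an ordinary test, treat and each array alone, and, chosen after seeing the data, RefSeq probes only.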

Additional observations from a re-analysis of the deposited data

How the results depend on the processing

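No paired analysis was possible because each array is itself the pairing of a heart RNA with MEF RNA and there is a single group. Across centring, quantile normalization, the median over probes, omission of the spike probes, a robust prior and RefSeq probes only, 37 to 40 listed genes were higher and 6 to 7 lower in heart, and no listed gene that passed changed sign under any alternative. An ordinary test, which drops the shared variance, called 23 higher and 3 lower, and treat called 33 higher and 3 lower. Of all genes treat called 15.1% higher and 14.6% lower. For the ordinary test and the other alternatives no share of all genes was counted. Their counts therefore show only how the calls depend on the processing. In the other endothelial list the ordinary test called 14 higher and 3 lower, and treat called 2 lower. For VEGF and Notch genes the ordinary test called 9 higher and 1 lower. For other lymphatic genes 4 were higher by the ordinary test and 4 by treat. For the other angiopoietin, adrenomedullin and apelin genes the ordinary test called 1 higher and 1 lower, and treat 1 higher. The ordinary test has 1 degree of freedom and treat asks for more than a 2-fold ratio. The median of the listed genes was 2.38 without spike probes and 2.17 with RefSeq probes only, each over 49 genes, and 2.22 and 2.29 with 1 array left out. With either array alone, no test is possible without residual degrees of freedom, and 33 genes were at least 2-fold higher and 4 lower. Depth could not be judged from ratios.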
